A study of Mus musculus with 10 samples.

Results

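The matrix metalloproteinases (MMPs), the ADAMTS proteases and the tissue inhibitors of metalloproteinases (TIMPs) were taken as every row of the array table annotated with exactly 1 gene symbol made of Mmp, Adamts or Timp and a number; Adamtsl genes were left out. This gave 44 of the 29766 genes tested, 22 Mmp, 18 Adamts and 4 Timp genes, each measured by 1 row. RefSeq lists 46 such mouse genes, and Mmp15 and Adamts2 of these were not analysed here. The arrays hold RNA of inner ear tissue, labelled cochlea, from CBA/CaJ mice of 6 months, a strain with late hearing loss, whose hearing was normal at this age. All animals were housed singly; 5 arrays came from cages with a running wheel (runners, titled RW) and 5 from cages without one (controls), and no transgene or drug is named. The comparison addresses how the young inner ear differs when a wheel is in the cage. Values are log2 expression after RMA, the authors' background correction, quantile normalization and probe summary, and a difference is always runner minus control on the log2 scale.

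MMPs are zinc proteases that cleave collagens, laminins and other proteins of the extracellular matrix, and most are made as inactive proforms. ADAMTS proteases carry thrombospondin repeats beside a related catalytic domain and act on proteoglycans such as aggrecan, on procollagens, on von Willebrand factor and on microfibrils. TIMPs bind the active site of these proteases and block it. In the inner ear the substrates of these enzymes lie in the bony capsule, the spiral ligament, the basilar and tectorial membranes and the walls of small vessels.

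Whether the arrays stand for separate animals is not stated in the labels, so the spread behind the p-values is that between these samples and may be technical. Precision is limited by the small number of arrays. Pearson correlations across all genes tested were 0.991 to 0.997 between any pair of arrays of a group. Runner 1 stood apart, and not only in these genes. The 44 values scattered around their group means with an SD of 0.195 in runner 1 and of 0.0789 to 0.142 on the other 9 arrays. Over all genes tested this SD was 0.180 in runner 1 and 0.104 to 0.163 on the other 9 arrays. Markers of other tissues were measured beside those of the sensory organ. The mean log2 level of 8 hair cell markers lay between 4.87 and 5.32 over the 10 arrays, that of 12 neutrophil markers between 8.85 and 9.40 and that of 6 brain markers between 8.37 and 8.67. In such bulk RNA fewer cells of a type and less RNA per cell cannot be told apart.

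Sequence windows before the gene starts are shown for a pair of motifs. The first was found for 8 of the 10 genes in the largest row of neighbouring members, not for Mmp8 or Mmp27. The second is carried by Mmp11 and Mmp14, which had the smallest and the third smallest p of the family. The motifs and the windows printed were chosen after the values had been seen, so no difference is read from them; no window was at hand for Mmp2. RefSeq (GRCm38.p6) promoter windows were at hand for 30 of the 44 genes, in 33 windows, and the 250 bases before each annotated start were searched on both strands. The AP-1 motif TGANTCA, the site of Fos and Jun proteins, was found in 8 of the 33 member windows and in 6.8% of all 32817 windows. All 8 windows belonged to the row of 10 neighbouring Mmp genes on chromosome 9 (Mmp13, Mmp12, Mmp1b, Mmp3, Mmp1a, Mmp10, Mmp8, Mmp27, Mmp20 and Mmp7, in this order and with no other protein-coding gene between them), and the motif began 35 to 95 bases before the start. They read as follows with 12 bases on each side, 5′ to 3′ on the gene's strand and with the motif in capitals.
Mmp13, chr9:7272467-7272497, plus strand: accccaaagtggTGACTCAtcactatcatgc
Mmp12, chr9:7347318-7347348, plus strand: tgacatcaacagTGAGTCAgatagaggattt
Mmp1b, chr9:7388101-7388131, minus strand: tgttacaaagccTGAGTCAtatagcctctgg
Mmp3, chr9:7445764-7445794, plus strand: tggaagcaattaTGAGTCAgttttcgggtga
Mmp1a, chr9:7464056-7464086, plus strand: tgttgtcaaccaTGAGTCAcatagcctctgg
Mmp10, chr9:7502267-7502297, plus strand: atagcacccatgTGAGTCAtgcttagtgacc
Mmp20, chr9:7628124-7628154, plus strand: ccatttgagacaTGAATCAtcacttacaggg
Mmp7, chr9:7692015-7692045, plus strand: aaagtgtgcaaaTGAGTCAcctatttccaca

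The GC box GGGCGG, a site of Sp1-type factors, was found in 14 of the 33 member windows and in 32.7% of all windows, and it cannot overlap the AP-1 motif. Mmp11 and Mmp14 held 2 GC boxes each and 0 AP-1 motifs in these 250 bases. A Runx motif, TGTGGT, was also searched and was found in 6 of the 33 member windows and in 14.0% of all windows. The windows are printed with the GC boxes in capitals; a match describes these letters and not a site in use.
Mmp11, chr10:75932503-75932752, minus strand: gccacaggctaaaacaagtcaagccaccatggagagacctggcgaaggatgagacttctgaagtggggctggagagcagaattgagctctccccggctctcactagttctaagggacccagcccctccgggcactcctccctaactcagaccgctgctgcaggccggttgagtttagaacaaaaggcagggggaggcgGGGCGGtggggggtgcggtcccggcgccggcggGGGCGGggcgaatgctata
Mmp14, chr14:54431348-54431597, plus strand: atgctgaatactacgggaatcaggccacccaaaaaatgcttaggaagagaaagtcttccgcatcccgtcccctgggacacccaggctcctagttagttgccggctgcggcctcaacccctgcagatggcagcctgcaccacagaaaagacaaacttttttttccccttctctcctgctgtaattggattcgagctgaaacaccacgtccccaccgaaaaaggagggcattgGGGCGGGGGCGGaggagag

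No member passed the gene test, limma with Benjamini-Hochberg adjustment over all 29766 genes at adjusted p under 0.05 (0 of 44, smallest adjusted p = 0.50), where 0.00672% of all genes passed. At an unadjusted p under 0.05, 3 members were lower in runners, Mmp11, Mmp2 and Mmp14, or 6.82% of the 44, against 3.92% of all genes. None was higher at that level, against 3.21% of all genes. Runner means lay below control means for 23 members, or 52.3%, against 49.5% of all genes; with each array centred on its median 19 did, and with quantile normalization repeated 20. The median difference was -0.0067 over the 44 members and 0.00091 over all genes, and that of the members turned to 0.017 with centring and 0.0061 with repeated normalization. By family the median was 0.012 for Mmp genes (0.036 with centring and 0.013 with repeated normalization), -0.021 for Adamts genes (0.0027 and 0.0018) and -0.047 for Timp genes (-0.024 and -0.035). The 95% interval of the difference took in 0 for 41 members and lay between -0.5 and 0.5 for 43.

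**Figure D1:**
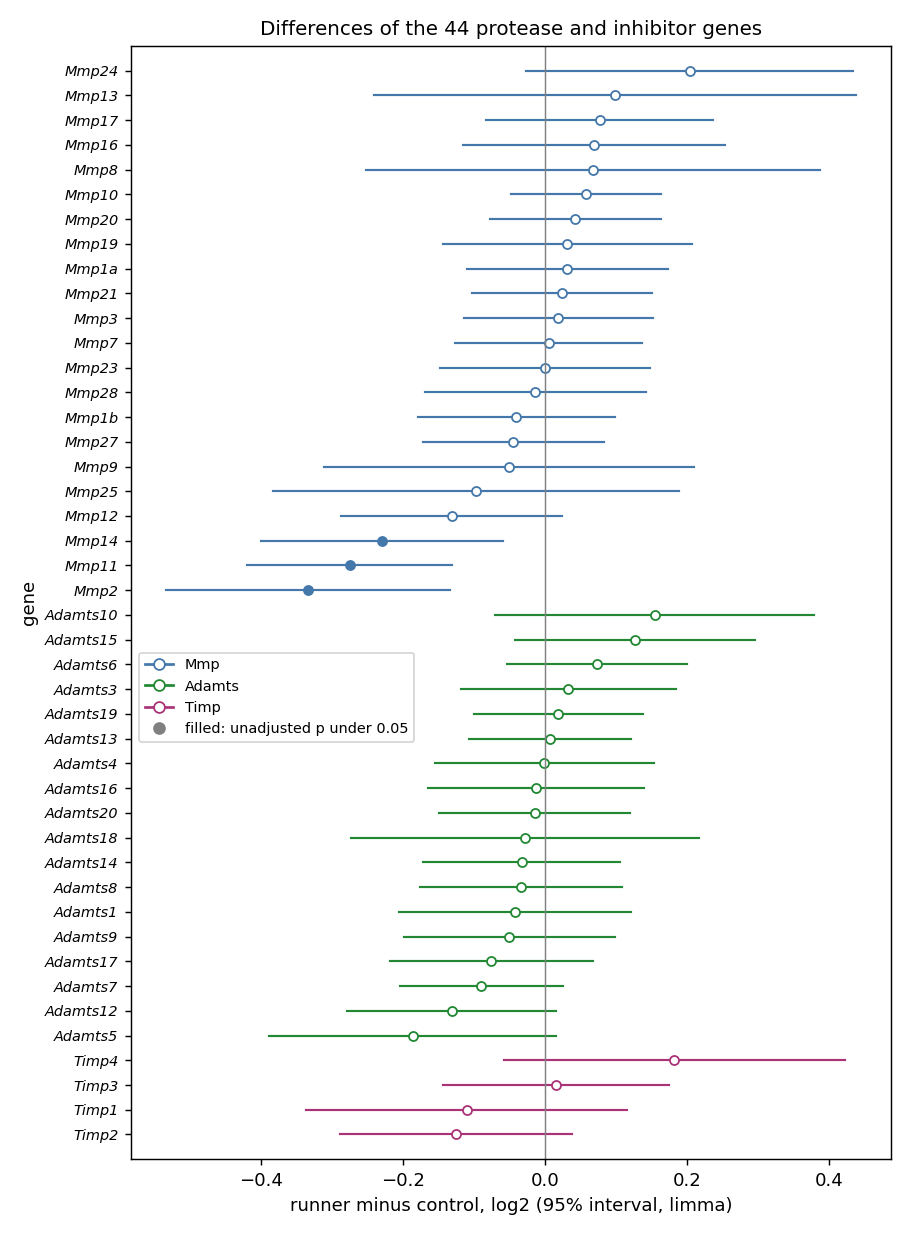
Runner minus control difference on the log2 scale (x axis) of the 44 genes (y axis), with points for the limma estimate and lines for its 95% interval, coloured by family. Filled points mark an unadjusted p under 0.05, which Mmp2, Mmp11 and Mmp14 reached on the lower side, with intervals below 0.

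Mmp2 encodes gelatinase A, a secreted protease of connective tissue cells that cleaves denatured collagen and basement membrane collagen. It was at 7.90, 7.999, 7.89, 8.15 and 7.76 in controls 1 to 5 and at 7.82, 7.48, 7.70, 7.38 and 7.66 in runners 1 to 5. Runner 1 alone lay above a control, the lowest one, and runners 2 and 4 were the lowest of all. Controls averaged 7.94 ± 0.15 (SD, n = 5) against 7.61 ± 0.17 (SD, n = 5) for runners, so that the difference was -0.33 ± 0.092 (SE), or 1.26-fold (limma unadjusted p = 0.00333, adjusted p = 0.564).

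Mmp14 encodes the membrane protease MT1-MMP, which with TIMP2 as its bridge activates the proform of MMP2 at the cell surface. It was at 7.66, 7.74, 7.47, 7.81 and 7.76 in controls 1 to 5 and at 7.57, 7.56, 7.26, 7.46 and 7.44 in runners 1 to 5. Control 3 was the 1 control within the range of the runners, and the other 4 controls lay above all runners. The means were 7.69 ± 0.13 (SD, n = 5) and 7.46 ± 0.12 (SD, n = 5), a difference of -0.23 ± 0.079 (SE) or 1.17-fold (limma unadjusted p = 0.0126, adjusted p = 0.607).

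Mmp11 encodes stromelysin 3, an enzyme of fibroblast-like cells that furin-type proteases activate inside the cell. It was at 5.69, 5.77, 5.69, 5.59 and 5.81 in controls 1 to 5 and at 5.59, 5.42, 5.33, 5.33 and 5.52 in runners 1 to 5. All runners lay below all controls, though runner 1 and control 4 were equal to the digits printed, and Mmp11 was the 1 member of 44 whose groups did not overlap, against 0.927% of all genes (all runners below for 0.548% and above for 0.38%). The means were 5.71 ± 0.083 (SD, n = 5) and 5.44 ± 0.11 (SD, n = 5), a difference of -0.27 ± 0.066 (SE) or 1.21-fold (limma unadjusted p = 0.00127, adjusted p = 0.50).

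The exact permutation test over all 252 assignments of the arrays, two-sided and unadjusted for the 44 genes, was run for the members only. No share of all genes is therefore at hand, and the values are those that limma used. The exact p was under 0.05 for 4 members. It was 0.00794 for Mmp11, the smallest this design can give, 0.0159 for Mmp2, 0.0317 for Mmp14 and 0.0397 for Adamts7, for which limma gave an unadjusted p of 0.116. Mmp11, Mmp2 and Mmp14 remained below an unadjusted p of 0.05 in limma under each of the 20 alternative settings tried. Their limma adjusted p without runner 1 was 0.0620 for Mmp11, 0.0796 for Mmp2 and 0.164 for Mmp14. Without runner 1, 99 of all genes passed the adjusted threshold, or 0.333%, against 2 with all arrays. Among the 20 settings the limma adjusted p of each of these genes reached up to 0.992.

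**Figure D2:**
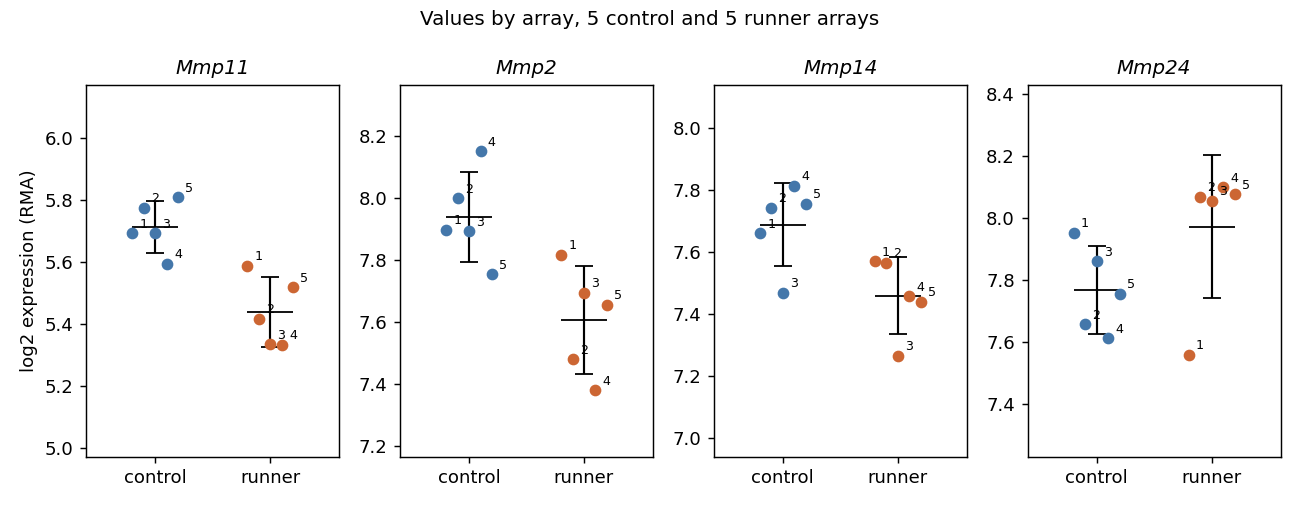
Log2 expression (y axis, spans of equal height) of Mmp11, Mmp2, Mmp14 and Mmp24 on each array, with the replicate number beside each point and the mean and SD of the group in black. Runners sit low in the first 3 panels, whereas in the Mmp24 panel runners 2 to 5 lie at 8.06 to 8.10, above every control, and runner 1 lies lowest at 7.56.

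Mmp24, the membrane type 5 enzyme that is best known from neurons, lay above every control on 4 of the 5 runner arrays. It was at 7.95, 7.66, 7.86, 7.61 and 7.76 in controls 1 to 5 and at 7.56, 8.07, 8.06, 8.10 and 8.08 in runners 1 to 5. The difference of 0.20 ± 0.11 (SE) did not pass (limma unadjusted p = 0.0771, adjusted p = 0.721). Runner 1 decided this value: without it the difference was 0.31 ± 0.072 (SE; limma unadjusted p = 0.00117, adjusted p = 0.0817). With both runner 1 and control 1 left out, a setting added once the data had been seen, it was 0.35 ± 0.066 (SE) and Mmp24 was the 1 member that passed (limma adjusted p = 0.0383). In that setting 426 of all genes passed, or 1.43%, against 2 with all arrays.

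The other membrane-type genes had smaller differences. Mmp16, a membrane protease of the nervous system and skeleton, differed by 0.069 with an interval from -0.12 to 0.25, and runner 1 was again the lowest of all arrays at 5.24. Without runner 1 the difference was 0.15 (limma unadjusted p = 0.0306, adjusted p = 0.277), a setting in which 5.87% of all genes were higher at an unadjusted p under 0.05. Across the 20 alternative settings it was 0.026 to 0.17, with a limma unadjusted p of up to 0.767. Mmp25, found on leukocytes, differed by -0.096, with a range from 5.93 to 6.66 in runners that took in all controls. Mmp17, which like Mmp25 is held to the membrane by a lipid anchor, differed by 0.077, from -0.082 to 0.24.

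Proteases of leukocytes and bone overlapped widely between groups. Mmp8, the collagenase stored in neutrophil granules, lay between 8.78 and 9.38 in controls and between 8.92 and 9.69 in runners, a difference of 0.068 ± 0.15 (SE). Mmp9, gelatinase B of neutrophils and osteoclasts, lay between 7.78 and 8.23 and between 7.77 and 8.40, a difference of -0.050 ± 0.12 (SE). Runner 1 was the highest array for both, and without it the differences were -0.053 for Mmp8 and -0.16 for Mmp9. Without runner 1 and control 1 that of Mmp9 was -0.22 (limma unadjusted p = 0.0254, adjusted p = 0.235). Mmp13, the main collagenase of mouse bone and cartilage, lay between 8.08 and 8.75 in controls, with control 4 highest, and between 7.86 and 8.75 in runners, and its difference of 0.099 had an interval from -0.24 to 0.44. Mmp12, the elastase of macrophages, differed by -0.13 ± 0.072 (SE; limma unadjusted p = 0.0913).

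The 10 genes of the chromosome 9 cluster lay near 0. Their differences ranged from -0.13 for Mmp12 to 0.099 for Mmp13, 3 were lower and 7 higher (4 and 6 with repeated normalization), and none reached an unadjusted p of 0.05. Of the 10 genes 8 had a mean log2 value under 5 over all arrays, Mmp8 and Mmp13 being the exceptions, and a change in genes this dim may be understated by RMA.

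The 18 Adamts genes ranged from -0.19 to 0.15, and none reached an unadjusted p of 0.05 in limma. Of the 7 that cleave aggrecan, versican or related proteoglycans (Adamts1, Adamts4, Adamts5, Adamts8, Adamts9, Adamts15 and Adamts20) 6 were lower in runners, with a median of -0.033, but 4 when arrays were centred or normalized again, with medians of -0.0098 and -0.018. Adamts5, the chief aggrecanase of mouse cartilage, was at 6.87, 6.86, 6.42, 6.76 and 6.70 in controls 1 to 5 and at 6.72, 6.47, 6.37, 6.48 and 6.64 in runners 1 to 5. Control 3 lay low among the runners and runner 1 high among the controls, and the difference was -0.19 with an interval from -0.39 to 0.016 (limma unadjusted p = 0.0677). Adamts4, the other main aggrecanase, differed by -0.00092, with an interval from -0.16 to 0.15, and its sign turned in 10 of the 20 alternative settings.

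Adamts7 and Adamts12, which cleave the cartilage protein COMP, differed by -0.089 and -0.13, with intervals from -0.20 to 0.025 and from -0.28 to 0.016. Adamts7 was at 5.08, 5.02, 5.03, 4.97 and 4.99 in controls 1 to 5 and at 5.02, 4.96, 4.89, 4.83 and 4.93 in runners 1 to 5. Runner 1 lay among the controls and the other 4 runners below all of them, within a narrow range; without moderation of the variances its limma p was 0.0439. The procollagen peptidases Adamts3 and Adamts14 differed by 0.033 and -0.032. Adamts13, which cuts von Willebrand factor, differed by 0.0076, from -0.11 to 0.12. Adamts10, a protein of fibrillin microfibrils, had the highest Adamts difference at 0.15 ± 0.10 (SE; limma unadjusted p = 0.159). It was at 7.24 in runner 1, below all controls, and at 7.82, 7.72 and 7.84 in runners 2 to 4, above all controls. Without runner 1 the difference was 0.25 (limma unadjusted p = 0.00435, adjusted p = 0.123), where 5.87% of all genes were higher at an unadjusted p under 0.05. It ranged from 0.10 to 0.27 over the 20 alternative settings, with a limma unadjusted p of up to 0.341.

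**Figure D3:**
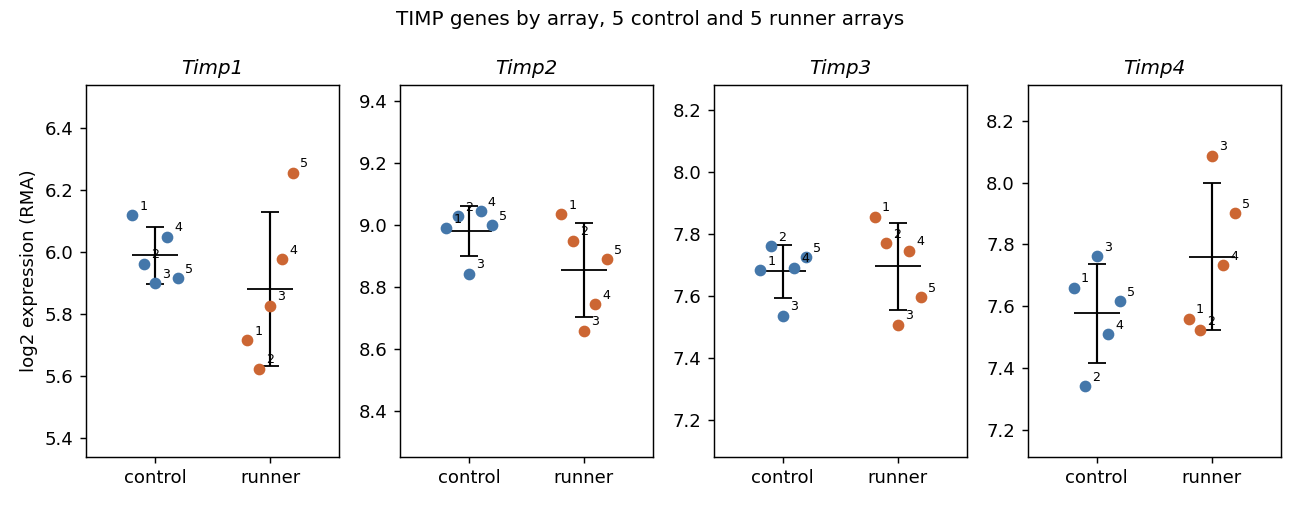
Log2 expression (y axis, spans of equal height) of the 4 TIMP genes on each array, with replicate numbers and the mean and SD of the group in black. The groups overlap in all 4 panels, and the runners are spread more widely than the controls.

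The 4 inhibitors split 2 lower and 2 higher, and none reached an unadjusted p of 0.05 in limma. Their exact permutation p, two-sided, ranged from 0.151 for Timp2 to 0.833 for Timp3. Timp2, which both inhibits MMP2 and helps MT1-MMP to activate it, was at 8.99, 9.03, 8.84, 9.04 and 8.998 in controls 1 to 5 and at 9.03, 8.95, 8.66, 8.74 and 8.89 in runners 1 to 5. Control 3 lay low among the runners and runner 1 high among the controls, and the difference was -0.13 ± 0.075 (SE; limma unadjusted p = 0.122, adjusted p = 0.760). Without runner 1 the difference was -0.17 (limma unadjusted p = 0.0361, adjusted p = 0.298).

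Timp1, an inducible inhibitor of most secreted MMPs, was at 6.12, 5.96, 5.90, 6.05 and 5.91 in controls 1 to 5 and at 5.72, 5.62, 5.83, 5.98 and 6.26 in runners 1 to 5. Runners held both the lowest and the highest arrays, and the difference was -0.11 ± 0.10 (SE). Without runner 5, the highest array, it was -0.20 (limma unadjusted p = 0.0261, adjusted p = 0.776). Timp3, which is bound to the matrix and also blocks ADAMTS aggrecanases, was at 7.68, 7.76, 7.54, 7.69 and 7.73 in controls 1 to 5 and at 7.86, 7.77, 7.51, 7.75 and 7.60 in runners 1 to 5. Its groups overlapped throughout, and the difference of 0.016 had an interval from -0.14 to 0.17.

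Timp4, an inhibitor found in heart and brain, was at 7.66, 7.34, 7.76, 7.51 and 7.62 in controls 1 to 5 and at 7.56, 7.52, 8.09, 7.73 and 7.90 in runners 1 to 5. Runners 3 and 5 lay above all controls and the other 3 within their range. The difference was 0.18 ± 0.11 (SE; limma unadjusted p = 0.124, adjusted p = 0.760). It was 0.24 without runner 2 (limma unadjusted p = 0.0488, adjusted p = 0.678), 0.26 with array weights (limma unadjusted p = 0.0275, adjusted p = 0.330) and 0.18 with the replicate block (limma unadjusted p = 0.0357, adjusted p = 0.746). In these settings 3.91%, 5.79% and 3.23% of all genes were higher at an unadjusted p under 0.05. Timp4 did not reach that level in the other settings. Its difference ranged from 0.10 to 0.26 over all 20, with a limma unadjusted p of up to 0.328.

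Genes linked to these proteases were set beside them in 4 lists. Of 24 measured substrates 17 had a lower mean in runners, 9 of them with an unadjusted p under 0.05, or 37.5% against 3.92% of all genes, with 0 higher at that level and 0 past the adjusted threshold. The list median was -0.11, or -0.084 with centring. Type I collagen came first, with differences of -0.61 ± 0.11 (SE) for Col1a1 and -0.45 ± 0.086 (SE) for Col1a2. Col2a1, the collagen of cartilage and the tectorial membrane, followed at -0.20 ± 0.054 (SE), before the matrix glycoprotein gene Tnc at -0.27 ± 0.081 and the type III collagen gene Col3a1 at -0.31 ± 0.096. The adjusted p of these 5 ranged from 0.172 for Col1a1 to 0.592 for Col3a1. Without runner 1 both type I collagen genes passed (limma adjusted p = 0.0480 for Col1a1 and 0.0487 for Col1a2), as they did without runner 1 and control 1 (0.0388 and 0.0394). Of all genes 99, or 0.333%, passed without runner 1, and 426, or 1.43%, without runner 1 and control 1. The collagens were known to be lower in these arrays when the list was drawn up, so their direction is not independent evidence.

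Of 24 measured activators and inhibitors 19 had a lower mean in runners; 4 (16.7%) were lower and 1 (4.17%) higher with an unadjusted p under 0.05, against 3.92% and 3.21% of all genes, with 0 past the adjusted threshold and a median of -0.060. With centring 16 had a lower mean, 3 at that level, and the median was -0.037; with repeated normalization it was -0.034. Plau, which encodes urokinase, the protease that makes plasmin from plasminogen, was at 5.03, 5.14, 5.09, 5.24 and 5.25 in controls 1 to 5 and at 5.02, 4.94, 4.76, 4.77 and 5.02 in runners 1 to 5. All runners lay below all controls, by little for runners 1 and 5 against control 1, and the difference was -0.25 ± 0.071 (SE; limma unadjusted p = 0.00446, adjusted p = 0.583). The thrombospondin gene Thbs2 differed by -0.20 ± 0.074, A2m, which encodes the protease trap alpha-2-macroglobulin, by -0.33 ± 0.13, and Pcolce, an enhancer of procollagen cleavage, by -0.14 ± 0.059. A2m passed without runner 1 and control 1 (-0.47, limma adjusted p = 0.0422). Klk1, tissue kallikrein, was the 1 higher, at 0.67 ± 0.22 (SE; limma unadjusted p = 0.0109, adjusted p = 0.607).

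The 16 relatives, genes of ADAM and ADAMTS-like proteins and of tolloid proteases, had a median of -0.013. It turned to 0.011 with centring and 0.0053 with repeated normalization. Tll1, a tolloid-like procollagen peptidase, was the 1 at an unadjusted p under 0.05, with a difference of 0.34 ± 0.12 (SE; limma unadjusted p = 0.0173, adjusted p = 0.607). Of 17 transcription factors and cytokines known to act on Mmp genes, 3 (17.6%) were lower and 1 (5.88%) higher at that level, against 3.92% and 3.21% of all genes, and 0 passed; with centring 2 were lower, and the median moved from -0.061 to -0.037. They were the cytokine genes Il1a (-0.28 ± 0.097), Tnf (-0.18 ± 0.067) and Tgfb2 (-0.26 ± 0.11) and, on the higher side, the AP-1 gene Fosl2 (0.16 ± 0.065). The AP-1 genes did not share this direction. Fos differed by -0.56 ± 0.26 (SE), with a limma unadjusted p of 0.0516 and an adjusted p of 0.699. Fosb, Jund, Jun and Fosl1 lay between -0.041 and 0.057.

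**Figure D4:**
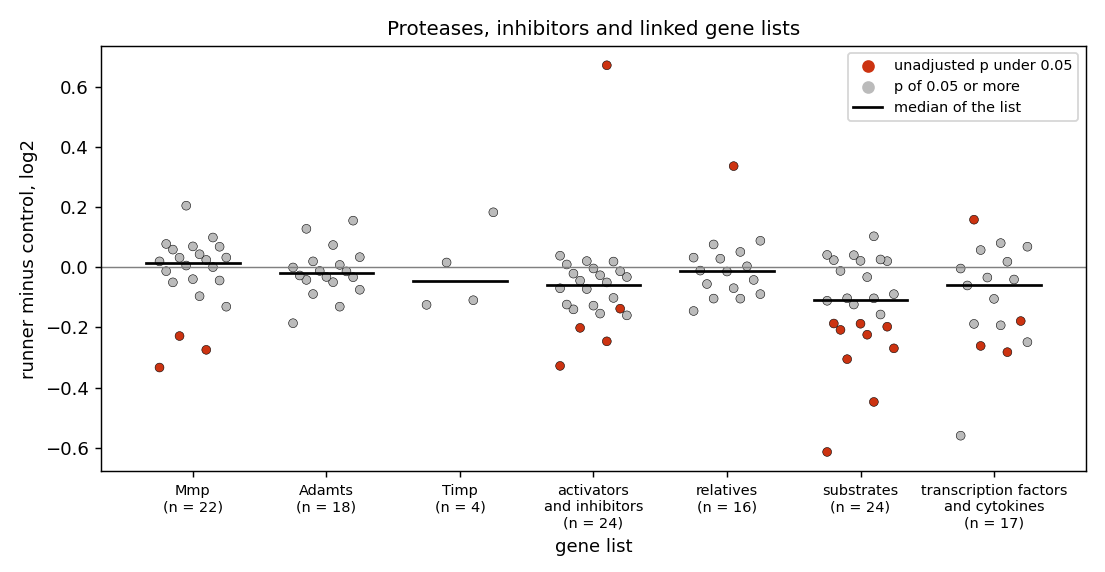
Runner minus control difference on the log2 scale (y axis) of each gene of the 3 families and of the 4 linked lists (x axis, with the number of genes measured); red points had an unadjusted p under 0.05 and black bars are list medians. The Mmp, Adamts and Timp medians lie at 0.012, -0.021 and -0.047, and the substrate median is the lowest at -0.11.

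Members were then compared with the mean of each of 13 marker lists over the 10 arrays, 572 pairs in all, by Pearson and Spearman correlation with permutation p adjusted over all pairs. For 22 pairs the adjusted p of Pearson's r was under 0.05, and for 5 pairs that of both measures. The list means moved together across arrays, so a pair does not single out 1 cell type, and the part of these cells in any difference was not tested. Several marker lists also differed between the groups. Some marker lists share genes with the substrates, among them Col1a1, Col2a1, Col3a1, Col9a1 and Dcn, so these genes are counted in both. All 7 adipocyte markers were higher in runners, 5 at an unadjusted p under 0.05, with list means of 5.16 to 5.53 in controls and 5.58 to 6.11 in runners. All 9 macrophage markers and all 7 stria vascularis markers were lower, 4 of each list at that level, with list means that overlapped. Lower too were all 6 supporting cell and tectorial matrix markers, 4 at that level, and all 8 hair cell markers, 2 at that level. So were 7 of the 9 chondrocyte markers, 3 at that level, with the substrates Col2a1 and Col9a1 among these. All 7 endothelium markers were lower, 0 at that level, and the means of these lists overlapped too. Of all genes 3.92% were lower and 3.21% higher at that level.

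Mmp2 varied with the fibroblast markers. Pearson's r was 0.96 (permutation p = 4e-05, adjusted p = 0.0200) and Spearman's rho 0.95 (permutation p = 0.00011, adjusted p = 0.0315), with r = 0.90 without the 2 arrays farthest from the median and r = 0.97 over deviations from the group means. The 7 fibroblast markers measured ranged from Dpt at a mean log2 of 6.06 to Dcn at 8.78. Of these, 5 had a lower mean in runners, 3 with an unadjusted p under 0.05, against 49.5% and 3.92% of all genes. The list mean was 7.11 to 7.31 in controls and 6.94 to 7.17 in runners, and runners 2 and 4 were lowest in both Mmp2 and this list. All 7 osteoblast markers were lower in runners, 6 with an unadjusted p under 0.05, against 3.92% of all genes. The lists were chosen with earlier results of these data known, so the direction of this list is not independent evidence. Bglap and Bglap2 were the 2 of all genes that passed the adjusted threshold. Taken singly, 3 markers (Bglap, Bglap2 and Col1a1) had all runners below all controls, against 0.548% of all genes. The mean of the 7 osteoblast markers did not overlap between the groups, at 7.88 to 8.10 in controls and 7.30 to 7.72 in runners. Mmp2 and Mmp14 had r of 0.83 and 0.84 with them (permutation p = 0.00283 and 0.00372, adjusted p = 0.0675 and 0.0718; rho 0.87 and 0.84, permutation p = 0.00231 and 0.00398, adjusted p = 0.0944 and 0.107). Without the 2 farthest arrays these r were 0.96 and 0.70, and over deviations from the group means they fell to 0.50 and 0.67. Mmp11 had r = 0.57 with the fibroblast list (adjusted permutation p = 0.294), and 0.16 over deviations from the group means. Its r was 0.90 with the hair cell, 0.87 with the chondrocyte and 0.87 with the supporting cell and tectorial matrix list. The adjusted permutation p of these r was 0.0343, 0.0343 and 0.0446, but that of rho was 0.119, 0.115 and 0.172.

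**Figure D5:**
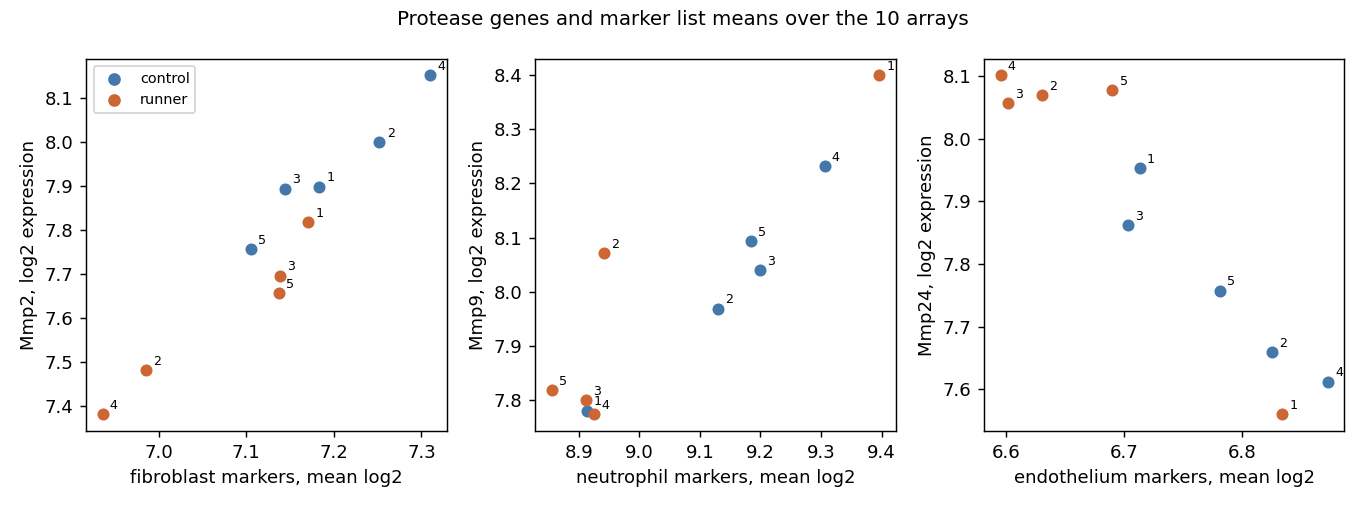
Log2 expression of Mmp2, Mmp9 and Mmp24 (y axes) against the mean log2 level of the fibroblast, neutrophil and endothelium markers (x axes), 1 point per array with its replicate number. Mmp2 and Mmp9 are high where their list is high, and Mmp24 is low where the endothelium list is high, with runner 1 lowest for Mmp24 in the third panel.

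Mmp9 varied with the neutrophil markers by Pearson's r, at 0.90 (permutation p = 0.00057, adjusted p = 0.0343), but its rho of 0.82 did not pass (permutation p = 0.00549, adjusted p = 0.109), and r was 0.75 without runner 1 and control 4, the 2 farthest arrays. Mmp8 had r = 0.77 and rho = 0.81 with the same list (permutation p = 0.00836 and 0.00725, adjusted p = 0.102 and 0.119), and r was 0.46 without those arrays. Over deviations from the group means r was 0.93 for Mmp9 and 0.90 for Mmp8. Of the 12 neutrophil markers 11 were lower in runners and 2 at an unadjusted p under 0.05, against 49.5% and 3.92% of all genes. Markers of 1 cell type vary together, so these are not separate results. The list mean was 8.91 to 9.31 in controls and 8.85 to 9.40 in runners, where runner 1 was highest.

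Mmp24 ran against the 7 endothelium markers, with r = -0.95 (permutation p = 7e-05, adjusted p = 0.0200) and rho = -0.93 (permutation p = 0.00023, adjusted p = 0.0329), and r = -0.92 without runner 1 and control 4. Their mean was 6.70 to 6.87 in controls and 6.59 to 6.83 in runners. Timp2 ran with the same list, at r = 0.84 (permutation p = 0.00186, adjusted p = 0.0484) and rho = 0.94 (permutation p = 0.00023, adjusted p = 0.0329), and r = 0.80 without those arrays. Adamts10 ran against the supporting cell and tectorial matrix list, at r = -0.90 (permutation p = 0.00019, adjusted p = 0.0343) and rho = -0.98 (permutation p = 3e-05, adjusted p = 0.0172), with r = -0.87 without runners 3 and 4. It also ran against the hair cell list, at r = -0.87 (permutation p = 0.00116, adjusted p = 0.0443) and rho = -0.93 (permutation p = 0.00034, adjusted p = 0.0334), with r = -0.91 without the same arrays. Over deviations from the group means these 4 relations had r of -0.93, 0.78, -0.91 and -0.85. By Pearson's r alone, Mmp24 also ran against the macrophage, neutrophil and supporting cell and tectorial matrix lists (r = -0.94, -0.93 and -0.89). The adjusted permutation p was 0.0343, 0.0343 and 0.0446. Timp2 ran with the stria vascularis, hair cell and supporting cell and tectorial matrix lists (r = 0.92, 0.89 and 0.88). Here the adjusted permutation p was 0.0343, 0.0443 and 0.0443. The rho of none of these pairs passed.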

How the data were processed

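RNA was labelled with biotin and put on 1 array per sample. The deposited values are log2 expression per transcript cluster by the authors; the submitters' processing notes name RMA and Partek and no version. Neither chip nor genome build nor filters are stated in the labels, and all coordinates are those of RefSeq promoter windows (GRCm38.p6).

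Of 39295 rows, 30130 had 1 symbol in the platform annotation (827 updated through Entrez identifiers), 2146 several and 7019 none. Of several rows for a gene the one with the highest mean was kept. The test over all 29766 genes was limma's (version 3.58.1, R 4.3.3; lmFit and eBayes with group as sole term, two-sided, p adjusted by Benjamini-Hochberg). The test was checked on simulated data. Correlations used 100000 resamples. Replicate numbers were not treated as pairs, except in the replicate block. Plots were made in Python 3.11.15 with matplotlib 3.10.9.

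Every member could be named. Values per array are given for members at an unadjusted p under 0.05, those whose groups do not overlap and all Timp genes, and for others by role. The 16 genes given by role, more than the 10 of the rule, were picked after their values had been seen, as were the 3 motifs and the windows printed; of each linked list, up to 5 genes at an unadjusted p under 0.05. Members and lists were chosen with earlier results of these data known. Of 185 genes in the linked and marker lists, 173 were measured. Alternatives were a filter on dim genes, other moderation, normalization and row choices, array weights, a replicate block and each array left out.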

Additional observations from a re-analysis of the deposited data

Results flagged for a closer look

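Among the 88 gene and group combinations of the 44 members, 7 had 1 array whose gap to the nearest other, over the range of its group, was above Dixon's 95% critical value of 0.71 for 5 samples; chance flags about 1 in 20 groups. Runner 1 was the lowest runner in 3 of them. It was at 7.56 for Mmp24, where the other runners lay between 8.06 and 8.10, at 5.24 for Mmp16, against 5.60 to 5.73, and at 6.04 for Adamts18, an ADAMTS protease, against 6.41 to 6.52. Control 4 was flagged as the highest control for Mmp13, at 8.75 against 8.08 to 8.25, and as the lowest for Adamts4, at 5.09 against 5.29 to 5.32. Control 3 was the lowest control for Timp2, at 8.84 against 8.99 to 9.04. Control 1 was the highest control for Adamts19, at 3.71 against 3.52 to 3.57.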

How the results depend on the processing

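The 3 members lower at an unadjusted p under 0.05 numbered 3 to 6 when 1 array was left out, 6 with array weights and 5 without runner 1 and control 1, and Mmp11, Mmp2 and Mmp14 were among them each time. The share of all genes lower at that level moved too: it was 3.92% as tested, 2.57% to 8.59% when 1 array was left out (highest without runner 1), 7.10% with array weights and 9.07% without runner 1 and control 1; for genes higher it was 3.21%, 2.26% to 5.87%, 5.79% and 6.41%. The count of members higher at that level, 0 as tested, was 0 to 3 when 1 array was left out, 4 with array weights, 1 with the replicate block and 4 without runner 1 and control 1. The members past the adjusted threshold were 0 in all planned settings, and 1 without runner 1 and control 1. Without dim genes (mean log2 under 5) 15 members were lower, of 27 left. The median difference ranged from -0.025 to 0.018. Timp3 turned below 0 with array weights (-0.037), without runner 1 and control 1 (-0.023) and in the range of -0.024 to 0.063 when 1 array was left out. Mmp8 was -0.14 without runner 1 and control 1 and -0.053 to 0.14 when 1 array was left out, and Mmp9 -0.16 to 0.0018. Adamts4 turned above 0 with repeated normalization (0.022), centring (0.023), array weights (0.016) and without runner 1 and control 1 (0.062), and was -0.043 to 0.048 when 1 array was left out. With 1 array left out Adamts3 was -0.0021 to 0.094, Adamts13 -0.023 to 0.031 and Adamts14 -0.069 to 0.0073. The causes were not tested.

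The correlations of deviations between arrays of the same number were -0.25, 0.061, 0.28, 0.070 and -0.19. They were not compared with those between arrays of unlike number, so they cannot decide whether the numbers pair the samples. The replicate block left 0 members past the adjusted threshold. With it Adamts5 was also lower, and Timp4 higher, at an unadjusted p under 0.05 in limma. With each array centred on its median, 2.83% of all genes were lower and 5.31% higher at an unadjusted p under 0.05, against 3.92% and 3.21% as tested, and the median of all genes moved to 0.024. With 5 arrays a group the standard errors of the members were 0.049 to 0.16. Even Mmp11, at -0.27 ± 0.066 (SE), did not pass the adjusted threshold (limma adjusted p = 0.50). Differences well above 1 standard error could therefore be missed, and 17 members had a mean log2 under 5.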
